A study of Mus musculus with 4 samples.

Results

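N-linked glycosylation genes were examined in RNA-seq of 4T1 cells, a mouse mammary carcinoma line, that were knocked out for Dhodh (DHODH KO) or wild type (WT). Members were the genes whose pathway annotation in the authors' table carries the entry N-Glycan biosynthesis, and 48 of 16695 genes did. Each genotype had 2 libraries, made from 1.3 ug of total RNA. DHODH is the mitochondrial enzyme that makes orotate in de novo pyrimidine synthesis, and the comparison asks how expression differs between the genotypes. The labels give the genotype only as KO or WT and state neither the way the gene was disrupted nor whether the KO cells are a clone. Nothing in them tells whether the 2 libraries of a genotype are separate cultures, and the p-values then cover the spread between these libraries alone, which may be technical.

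N-glycans are built on the lipid dolichol at the membrane of the endoplasmic reticulum (ER), moved as a block onto asparagines of nascent proteins by the oligosaccharyltransferase, trimmed of glucose and mannose, and then branched and capped in the Golgi. Many of the sugars arrive bound to pyrimidine nucleotides, as UDP-GlcNAc, UDP-glucose, UDP-galactose and CMP-sialic acid, and dolichol is phosphorylated at the expense of CTP. In carcinoma cells the branches that MGAT5 starts and the core fucose that FUT8 adds are well-studied surface changes.

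Levels are FPKM, fragments scaled to gene length and to library size, as the authors deposited them. Fold changes are KO minus WT on the log2(FPKM + 1) scale with their standard error (SE), which understates the change of low genes, and adjusted p-values are Benjamini-Hochberg values of limma-trend over all 10170 genes with a mean of at least 1 FPKM. A gene is said to have risen or fallen where its adjusted p was under 0.05. The steps of the FPKM values gave whole reads for most genes. These summed to 26103265 and 26060200 in DHODH KO replicates 1 and 2 and to 24077242 and 23556758 in WT replicates 1 and 2. The sums are not library sizes. They leave out genes above the 20000 reads searched, and a gene seen in 1 library counts as 1 read. Dhodh itself was measured at 9.67 and 8.69 FPKM in DHODH KO and at 10.9 and 10.3 FPKM in WT, so its transcript was still present in the libraries labelled DHODH KO, and the labels do not name the part of the gene that was targeted. Its call (log2 fold change -0.19, adjusted p = 0.0425) was lost without DHODH KO replicate 2 (-0.12, adjusted p = 0.200), and likewise when WT replicate 1 (-0.16, adjusted p = 0.170) or WT replicate 2 (-0.22, adjusted p = 0.0597) was left out. The epithelial markers Epcam, Krt8, Krt18, Krt19, Cdh1, Cldn4 and Cldn7 summed to 1544 and 1526 FPKM in DHODH KO and to 1473 and 1448 FPKM in WT. Among them Cldn4, Krt19 and Epcam were called higher, 2.11-fold, 2.06-fold and 1.44-fold, and Krt8, Krt18 and Cdh1 lower, while Cldn7 lay under the filter. Of 14 heart muscle markers, 12 reached 1 FPKM in DHODH KO replicate 2, against 3 in DHODH KO replicate 1 and 2 in each WT library, and Actc1, Myh6, Myl2 and Tnni3 were listed at 0 in those other libraries. In DHODH KO replicate 2 the summed fibroblast markers were also higher, at 9.16 FPKM against 2.56 to 3.11 FPKM in the other libraries. The summed endothelial markers were at 1.15 FPKM there, against 0.0854 to 0.133 FPKM. The summed immune markers were at 3.86 FPKM there, against 0.200 to 0.827 FPKM, and Lyz2 alone made up 3.51 FPKM of this. Of the other immune markers, Cd79a, Cd3e and Itgam were lower there than in DHODH KO replicate 1, and Csf1r and Ptprc higher. The part of these transcripts in the results was not tested, and the values without DHODH KO replicate 2 are given where they change a call. Fewer cells of a type and less RNA per cell cannot be told apart in bulk samples.

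The N-glycan genes moved in both directions in DHODH KO cells, by small amounts, and no step of the pathway moved as a whole. Of the 48 members, 44 passed the expression filter, 14 rose and 15 fell. Among all tested genes 64.7% were called, 35.6% higher and 29.1% lower, so the members' share of 65.9% was close to that of the table. Their median log2 fold change was -0.039, against 0.039 over all tested genes, and the median size irrespective of sign was 0.273, against 0.260. Both KO libraries lay outside both WT libraries for 36 of the 44 members, or 81.8%, where 83.4% of all tested genes did so. Without DHODH KO replicate 2, 12 members rose and 15 fell. Summed over all members, the level was 1013 and 1037 FPKM in DHODH KO and 978.3 and 981.3 FPKM in WT. The largest rise among the tested members was that of Dpm1, by 0.85, and the largest fall that of Fut8, by 0.88.

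**Figure D1:**
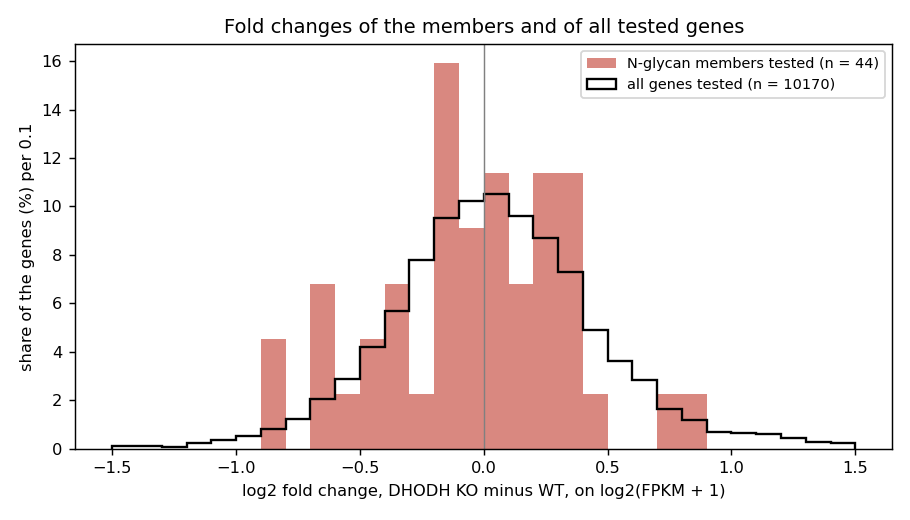
The x axis is the log2 fold change, DHODH KO minus WT, and the y axis the share of genes in each step of 0.1, for the 44 tested members (filled) and all 10170 tested genes (outline). The members spread over both sides of 0, between -0.88 and 0.85, within the range of the other genes, of which 105 lie beyond the plotted -1.5 to 1.5.

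The starts of genes for these 2 extremes are shown because they moved furthest in opposite directions, beside those of B4galt3 and Alg12, which hold a searched motif. The windows run from 250 bases before to 50 bases after a RefSeq start on GRCm38.p6, a build other than the authors', and are written 5′ to 3′ on the strand of the gene with motif matches in capitals. They lie at chr2:168230330-168230629 (minus strand), chr12:77238489-77238788 (plus strand, the first of 4 windows listed for this gene), chr1:171270078-171270377 (plus strand) and chr15:88819269-88819568 (minus strand).
Dpm1: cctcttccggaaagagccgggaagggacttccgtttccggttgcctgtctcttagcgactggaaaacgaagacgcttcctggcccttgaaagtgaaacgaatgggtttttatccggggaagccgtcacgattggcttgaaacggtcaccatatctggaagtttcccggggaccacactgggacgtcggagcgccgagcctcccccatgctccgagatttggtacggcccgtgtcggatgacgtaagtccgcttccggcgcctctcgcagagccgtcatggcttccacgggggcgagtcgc
Fut8: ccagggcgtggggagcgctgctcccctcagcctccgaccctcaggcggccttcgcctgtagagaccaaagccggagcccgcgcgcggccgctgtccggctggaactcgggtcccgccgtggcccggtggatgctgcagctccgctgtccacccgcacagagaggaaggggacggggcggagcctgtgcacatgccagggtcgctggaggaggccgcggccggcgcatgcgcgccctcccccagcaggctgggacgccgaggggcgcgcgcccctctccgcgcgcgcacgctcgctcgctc
B4galt3: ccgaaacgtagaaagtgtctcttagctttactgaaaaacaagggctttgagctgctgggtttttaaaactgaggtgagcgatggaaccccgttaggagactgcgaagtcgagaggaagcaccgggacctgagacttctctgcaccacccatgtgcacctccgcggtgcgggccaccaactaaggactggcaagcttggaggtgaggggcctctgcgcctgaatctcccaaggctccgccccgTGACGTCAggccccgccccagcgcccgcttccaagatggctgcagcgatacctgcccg
Alg12: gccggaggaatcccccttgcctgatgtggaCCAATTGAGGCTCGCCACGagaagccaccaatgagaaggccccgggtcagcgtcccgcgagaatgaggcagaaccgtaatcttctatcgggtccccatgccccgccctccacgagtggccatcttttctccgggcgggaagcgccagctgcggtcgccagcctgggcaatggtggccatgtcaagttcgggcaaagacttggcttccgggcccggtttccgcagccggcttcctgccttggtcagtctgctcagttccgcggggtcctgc

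Windows were held for 40 members and for 13086 genes of the table, and 6 motifs were searched on both strands. The ER stress element, CCAAT and CCACG with 9 bases between them, was found in 1 member, Alg12, 220 bases before the start, and in 0.153% of the genes. Alg12, a mannosyltransferase of the ER lumen, was not called. The cyclic AMP response element TGACGTCA, a palindrome, was found in B4galt3, 8 bases before the start, and in Alg13, and in 3.13% of the genes. B4galt3 rose and Alg13 was not called. The palindrome TCACGTGA of the lysosomal CLEAR element was found in Dpm2, which was not called, and in 1.80% of the genes. Neither ATTGG and CCACG with 1 base between them (0.0764% of the genes), nor TGACGTGG (0.963%), nor TGATGCAA (0.833%) was found in a member. A CCAAT box on either strand was in 50% of the 52 windows of members and in 37.6% of 16501 windows in all. A match describes letters in the window and not a site in use.

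**Figure D2:**
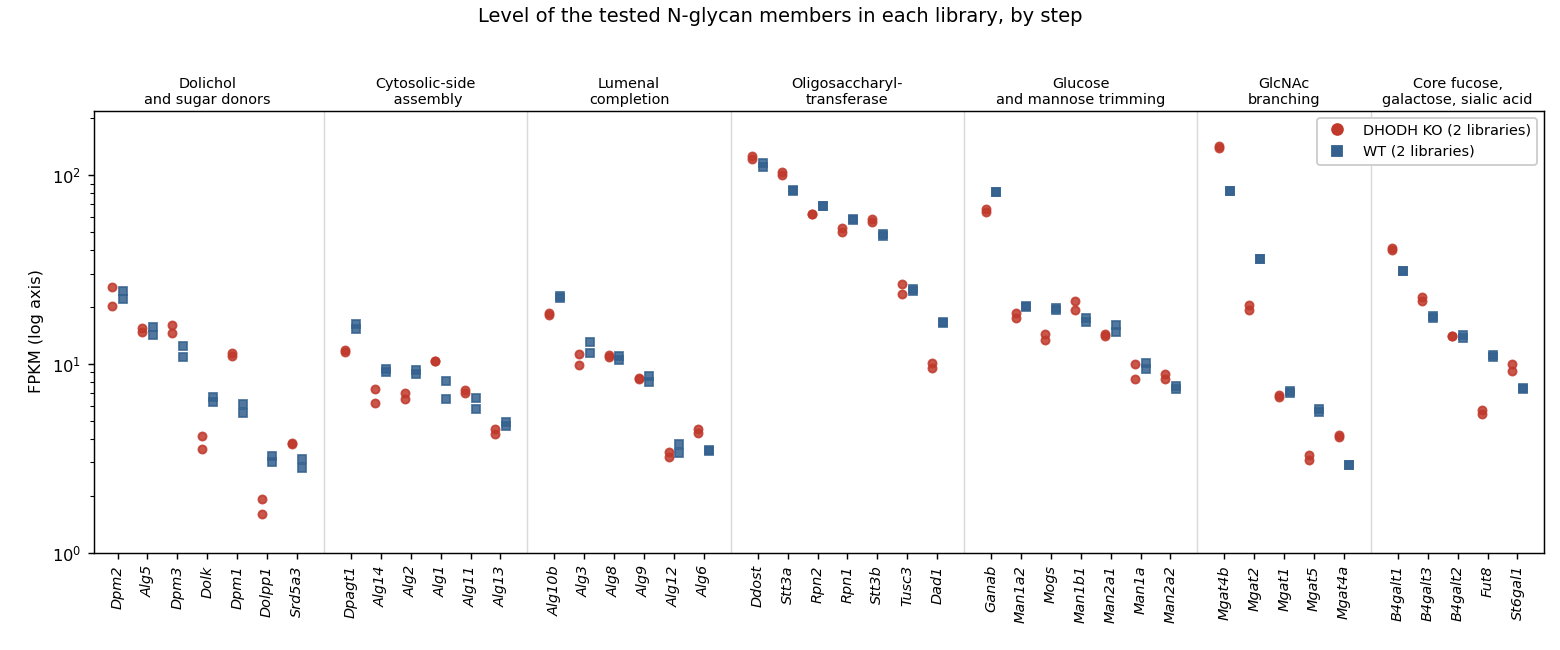
The y axis is FPKM on a log axis, with circles for the 2 DHODH KO and squares for the 2 WT libraries, and the x axis lists the tested members in order of the steps (Glt28d2, on no step's list, is left out). Ddost, Mgat4b and Stt3a stand highest per length on the mean of the libraries, and the libraries of a genotype lie close together beside the spread of levels between genes.

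Among the genes that make dolichol phosphate and load it with sugars, 3 of 7 rose and 2 fell. The share called was 71.4%, against 64.7% of all tested genes. Dpm1, the catalytic subunit of dolichol-phosphate mannose synthase, was at 11.0 and 11.4 FPKM in DHODH KO cells, against 5.47 and 6.09 FPKM in WT cells. Both KO values lay above both WT values, and the gene rose 1.94-fold (log2 fold change 0.85 ± 0.069 SE, adjusted p = 5.3e-05). Dpm3, which anchors the synthase in the membrane, was at 14.5 and 16.0 FPKM in DHODH KO and 12.5 and 10.8 FPKM in WT, and rose by 0.36 (adjusted p = 0.00509), a call that did not hold in the fit of all genes, unfiltered (adjusted p = 0.0545). Dpm2, the regulatory subunit, was at 20.3 and 25.6 FPKM in DHODH KO and 22.0 and 24.3 FPKM in WT. The Dpm2 groups overlapped, and the change of -0.02 was not called (adjusted p = 0.891), although without DHODH KO replicate 2 it was -0.18 and called (adjusted p = 0.0446).

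The dolichol kinase gene and the gene of the phosphatase that recycles dolichol diphosphate both fell. Dolk had 3.55 and 4.15 FPKM in DHODH KO and 6.31 and 6.64 FPKM in WT, from 284 and 333 reads in DHODH KO and 474 and 489 reads in WT. It was 1.68-fold higher in WT (-0.63 ± 0.084, adjusted p = 5.4e-04). Dolpp1 had 1.59 and 1.92 FPKM in DHODH KO and 3.23 and 3.03 FPKM in WT, a difference of -0.59 ± 0.097 (adjusted p = 0.00145). Neither gene's groups overlapped, as was so for 83.4% of all tested genes. Srd5a3, which reduces the polyprenol precursor, was at 3.80 and 3.78 FPKM in DHODH KO and 3.13 and 2.80 FPKM in WT (0.27, adjusted p = 0.0212), and its call was lost without DHODH KO replicate 1 (0.27, adjusted p = 0.0618), DHODH KO replicate 2 (0.28, adjusted p = 0.0528) or WT replicate 2 (0.21, adjusted p = 0.123). Alg5, which makes dolichol-phosphate glucose, was at 14.8 and 15.5 FPKM in DHODH KO and 15.6 and 14.2 FPKM in WT, with overlapping groups, and was not called (adjusted p = 0.807).

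On the cytosolic face of the ER, where the first sugars are added, 3 of 6 members fell and 1 rose. With 66.7% called, this step was near the 64.7% of all tested genes. Dpagt1, which starts the chain by placing GlcNAc phosphate from UDP-GlcNAc on dolichol phosphate and is the target of tunicamycin, was at 11.8 and 11.6 FPKM in DHODH KO cells and at 15.2 and 16.2 FPKM in WT cells. All KO values were below all WT values, and Dpagt1 fell by 0.39 ± 0.055 on the log2 scale (adjusted p = 6.2e-04). Alg14, the membrane partner of the enzyme that adds the next GlcNAc, had 6.18 and 7.31 FPKM in DHODH KO and 9.09 and 9.39 FPKM in WT and fell by 0.41 (adjusted p = 0.00358). Its catalytic partner Alg13 had 4.24 and 4.53 FPKM in DHODH KO and 4.68 and 4.89 FPKM in WT, without a call (-0.10, adjusted p = 0.248). Glt28d2, a member that stands on no step's list, was at 1.02 and 1.01 FPKM in DHODH KO and 1.08 and 1.29 FPKM in WT, the lowest tested level, and was not called (adjusted p = 0.378).

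The mannosyltransferases of this face divided. Alg1, which adds the first mannose, was at 10.4 FPKM in both DHODH KO libraries and at 8.08 and 6.52 FPKM in WT, and rose 1.42-fold (0.46 ± 0.092, adjusted p = 0.00353). Alg2, which adds the next mannoses, was at 6.53 and 6.97 FPKM in DHODH KO and at 8.86 and 9.26 FPKM in WT, and fell by 0.38 ± 0.064 (adjusted p = 0.00170). The WT libraries differed more for Alg1 than for Alg2. For neither gene did the groups overlap, as was so for 83.4% of all tested genes. Alg11, which completes the cytosolic chain, was at 7.27 and 7.01 FPKM in DHODH KO and at 6.56 and 5.73 FPKM in WT (0.19, adjusted p = 0.0638), and it was called without WT replicate 1 (0.28, adjusted p = 0.0277) and with the replicate number as a block (adjusted p = 0.0448).

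The lumenal steps held the fewest calls, 1 higher and 1 lower of 6 members. That is 33.3% called, against 64.7% of all tested genes, a difference that was not tested. Alg10b, which adds the last glucose that the oligosaccharyltransferase recognises, was at 18.2 and 18.5 FPKM in DHODH KO and at 23.0 and 22.3 FPKM in WT, and fell by 0.29 ± 0.047 (adjusted p = 0.00132). Alg6, which adds the first glucose, was at 4.51 and 4.31 FPKM in DHODH KO and at 3.51 and 3.46 FPKM in WT, and rose by 0.27 ± 0.074 (adjusted p = 0.0141). The Alg6 call was lost without DHODH KO replicate 1 (0.25, adjusted p = 0.0616) and without WT replicate 2 (0.26, adjusted p = 0.0569). The mannosyltransferase genes Alg3, Alg9 and Alg12 and the glucosyltransferase gene Alg8 were not called, with log2 fold changes from -0.19 to 0.03. Alg3, at 11.3 and 9.87 FPKM in DHODH KO and 11.4 and 13.0 FPKM in WT (adjusted p = 0.0872), was called lower without DHODH KO replicate 1 (-0.27, adjusted p = 0.0318) and without WT replicate 1 (-0.28, adjusted p = 0.0273). Alg12 was at 3.21 and 3.39 FPKM in DHODH KO and 3.37 and 3.74 FPKM in WT (adjusted p = 0.409), with overlapping groups. For Alg8 the values were 10.9 and 11.1 FPKM in DHODH KO and 10.5 and 11.0 FPKM in WT, and for Alg9 8.33 and 8.44 FPKM in DHODH KO and 8.65 and 8.03 FPKM in WT.

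The subunits of the oligosaccharyltransferase, the complex that moves the finished chain to protein, also went both ways, with 3 of 7 members higher and 3 lower. Here 85.7% were called, against 64.7% of all tested genes. The catalytic subunits rose together. Stt3a, of the complex that works while the chain is being translated, was at 99.6 and 103.7 FPKM in DHODH KO and at 83.0 and 82.2 FPKM in WT (0.30 ± 0.037, adjusted p = 3.9e-04). Stt3b, of the complex that also glycosylates finished proteins, was at 56.1 and 58.6 FPKM in DHODH KO and at 48.9 and 47.6 FPKM in WT (0.24 ± 0.041, adjusted p = 0.00167). The level of Stt3a over that of Stt3b was 1.78 and 1.77 in DHODH KO and 1.70 and 1.73 in WT, and the difference in this ratio was not tested. The shared subunit Dad1 fell most, to 9.50 and 10.1 FPKM in DHODH KO, against 16.4 and 16.6 FPKM in WT (-0.69 ± 0.055, adjusted p = 4.7e-05).

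The ribophorin genes Rpn1 and Rpn2, which encode core subunits, fell by less. Rpn1 was at 50.2 and 52.2 FPKM in DHODH KO and 58.5 and 57.5 FPKM in WT (-0.18, adjusted p = 0.00592), and Rpn2 at 61.9 FPKM in both DHODH KO libraries and at 68.5 and 68.4 FPKM in WT (-0.14, adjusted p = 0.00960). The Rpn2 call was lost when either WT library was left out, replicate 1 (-0.14, adjusted p = 0.0636) or replicate 2 (-0.14, adjusted p = 0.0596). Ddost, a core subunit, was at 121.2 and 126.1 FPKM in DHODH KO and 110.3 and 116.0 FPKM in WT (0.13, adjusted p = 0.0280), and its call was lost without DHODH KO replicate 2 (0.10, adjusted p = 0.0694) and without WT replicate 1 (0.09, adjusted p = 0.202). With all 4 libraries the Ddost call was lost with median-ratio scaling (0.075, adjusted p = 0.138), no trend (adjusted p = 0.0913) and no filter (adjusted p = 0.0869). Of the exchangeable oxidoreductase subunits, Tusc3 overlapped between the groups, at 23.4 and 26.5 FPKM in DHODH KO and 24.9 and 24.3 FPKM in WT (adjusted p = 0.825). Its counterpart Magt1, which lies outside the annotation entry, was at 24.8 FPKM in both DHODH KO libraries and at 28.0 and 26.4 FPKM in WT (-0.13, adjusted p = 0.0456), and this call was lost when any library was left out (adjusted p between 0.0501 and 0.292, with -0.09 without WT replicate 1).

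**Figure D3:**
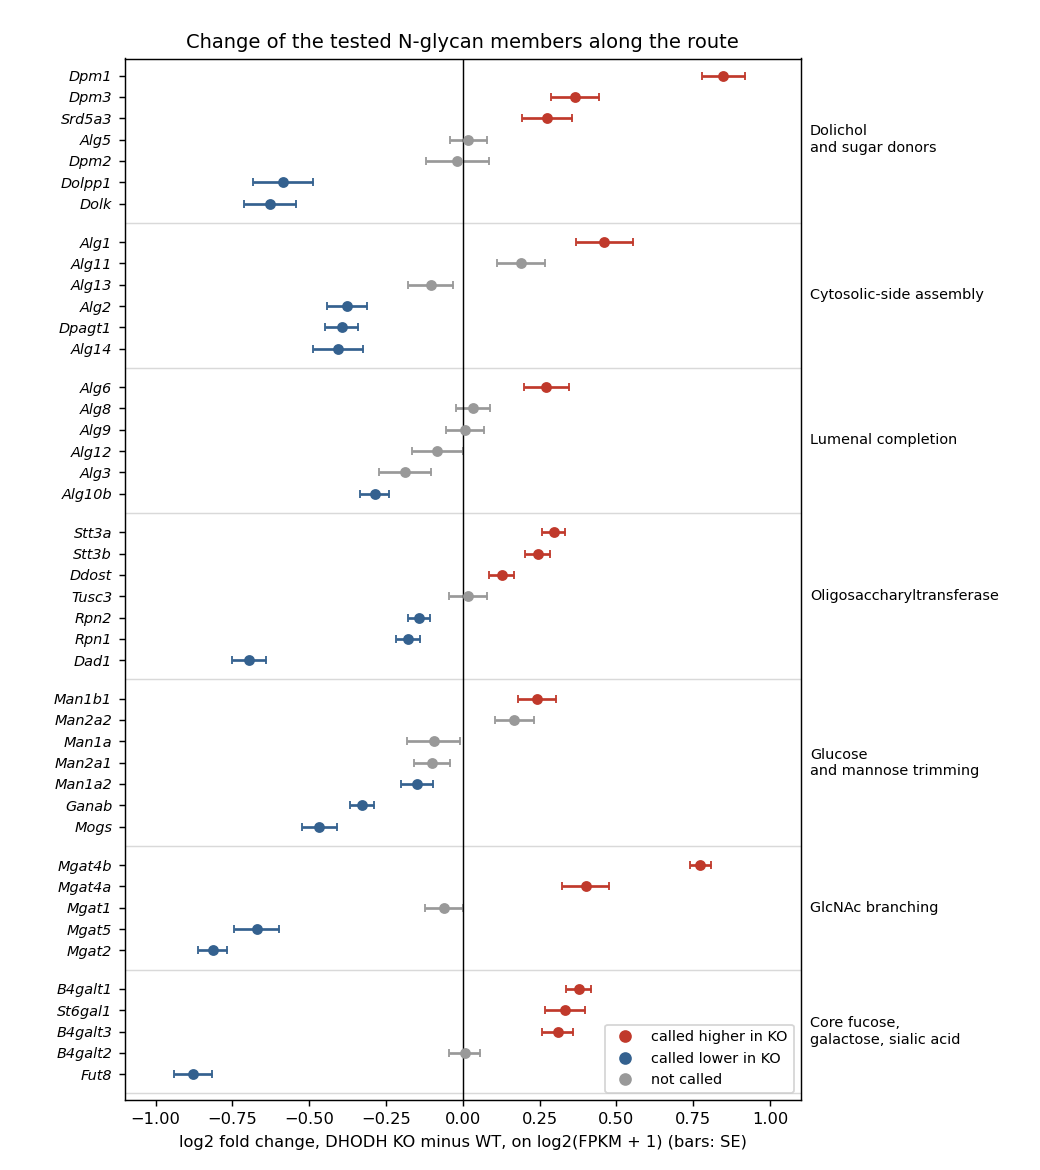
The x axis is the log2 fold change, DHODH KO minus WT, with its SE as bars, and members run down the page in the order of the steps (Glt28d2, on no step's list, is left out). Red points were called higher, blue points lower and grey points were not called, and each step holds points on both sides of 0, from Dpm1 at 0.85 to Fut8 at -0.88.

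Of 7 tested trimming members 1 rose and 3 fell, and the glucosidases that begin trimming after transfer were among those that fell. The share called in this step was 57.1%, against 64.7% of all tested genes. Mogs, glucosidase I, was at 14.4 and 13.3 FPKM in DHODH KO and at 19.3 and 19.8 FPKM in WT, and fell by 0.47 ± 0.056 (adjusted p = 3.0e-04). Ganab, the catalytic subunit of glucosidase II, was at 66.3 and 63.4 FPKM in DHODH KO and at 81.4 and 81.7 FPKM in WT, and fell by 0.33 ± 0.039 (adjusted p = 2.9e-04). Its regulatory partner Prkcsh, outside the entry, rose by 0.21 (adjusted p = 0.0163), at 101.1 and 93.3 FPKM in DHODH KO and 79.3 and 88.1 FPKM in WT. The Prkcsh call was lost when DHODH KO replicate 1 (0.16, adjusted p = 0.0579) or WT replicate 1 (0.14, adjusted p = 0.0900) was left out. The groups did not overlap for any of these genes, as was so for 83.4% of all tested genes.

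Mannose trimming changed less. The ER mannosidase gene Man1b1 was at 19.2 and 21.5 FPKM in DHODH KO and at 16.7 and 17.4 FPKM in WT (0.24 ± 0.063, adjusted p = 0.0116), a call that did not hold in the fit of all genes, unfiltered (adjusted p = 0.0662). Man1a2, a Golgi mannosidase I, was at 18.7 and 17.5 FPKM in DHODH KO and at 20.0 and 20.3 FPKM in WT (-0.15, adjusted p = 0.0382). The Man1a2 call was lost when DHODH KO replicate 2 (-0.10, adjusted p = 0.159), WT replicate 1 (-0.16, adjusted p = 0.102) or WT replicate 2 (-0.14, adjusted p = 0.141) was left out. The third enzyme of that family, Man1c1, lay under the filter, with 0.340 and 0.313 FPKM in DHODH KO and 0.113 and 0.110 FPKM in WT, from 64 and 59 reads in DHODH KO and 20 and 19 reads in WT. In the fit with no filter Man1c1 was called higher (0.26 ± 0.021, adjusted p = 0.00580). Man1a, at 9.93 and 8.26 FPKM in DHODH KO and 9.41 and 10.1 FPKM in WT, overlapped and was not called (adjusted p = 0.369). The Golgi mannosidase II gene Man2a1 was at 14.1 and 14.4 FPKM in DHODH KO and 16.0 and 14.7 FPKM in WT (-0.10, adjusted p = 0.164). Its relative Man2a2 was at 8.84 and 8.29 FPKM in DHODH KO and 7.36 and 7.67 FPKM in WT (0.17, adjusted p = 0.0507). Neither was called, and neither gene's groups overlapped, as was so for 83.4% of all tested genes. Man2a2 was called with a pseudocount of 0.1 (0.19, adjusted p = 0.0484), a minimum of 5 FPKM, no trend or robust variances. With voom on recovered reads both were called, Man2a2 (0.17, adjusted p = 0.0303) higher and Man2a1 (-0.13, adjusted p = 0.0357) lower.

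Among the GlcNAc transferases that set the number of branches, 2 of 5 tested members rose and 2 fell. The share called was 80%, against 64.7% of all tested genes. The median size of change of the branching members, 0.670 on the log2 scale, was the largest of the steps, against 0.273 over all members tested. This is a description that was not tested, and the largest rise and fall, those of Dpm1 and Fut8, lay in other steps. Mgat1, which places the first GlcNAc on the trimmed core, was at 6.86 and 6.65 FPKM in DHODH KO and at 7.21 and 6.98 FPKM in WT and was not called (-0.06, adjusted p = 0.420). Mgat2, which places the GlcNAc that makes a glycan complex, was at 19.3 and 20.6 FPKM in DHODH KO, against 35.8 FPKM in both WT libraries. It was 1.80-fold higher in WT (-0.81 ± 0.047, adjusted p = 1.2e-05). Mgat5, which starts a further branch, was at 3.27 and 3.10 FPKM in DHODH KO and at 5.77 and 5.55 FPKM in WT, and was 1.78-fold higher in WT (-0.67 ± 0.073, adjusted p = 2.0e-04).

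Both tested MGAT4 enzymes, which start a separate branch, rose. Mgat4b was at 140.0 and 142.2 FPKM in DHODH KO and at 82.2 and 82.1 FPKM in WT, from 12806 and 13017 reads in DHODH KO and 7052 and 6904 reads in WT. It rose 1.72-fold (0.77 ± 0.034, adjusted p = 4.1e-06). Mgat4a was at 4.10 and 4.21 FPKM in DHODH KO and at 2.91 and 2.90 FPKM in WT, and rose 1.43-fold (0.40 ± 0.075, adjusted p = 0.00267). None of the called branching genes overlapped between the groups, as was so for 83.4% of all tested genes. Each called branching gene kept its direction when any 1 library was left out. Per length, Mgat4b stood at 7.24 and 6.91 times the level of Mgat2 in DHODH KO and at 2.29 times in both WT libraries. Mgat3, which adds the bisecting GlcNAc, reached at most 0.00431 FPKM in DHODH KO and 0.00153 FPKM in WT, and Mgat4c was listed at 0 in all libraries but DHODH KO replicate 2 (0.00342 FPKM), so neither was tested.

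**Figure D4:**
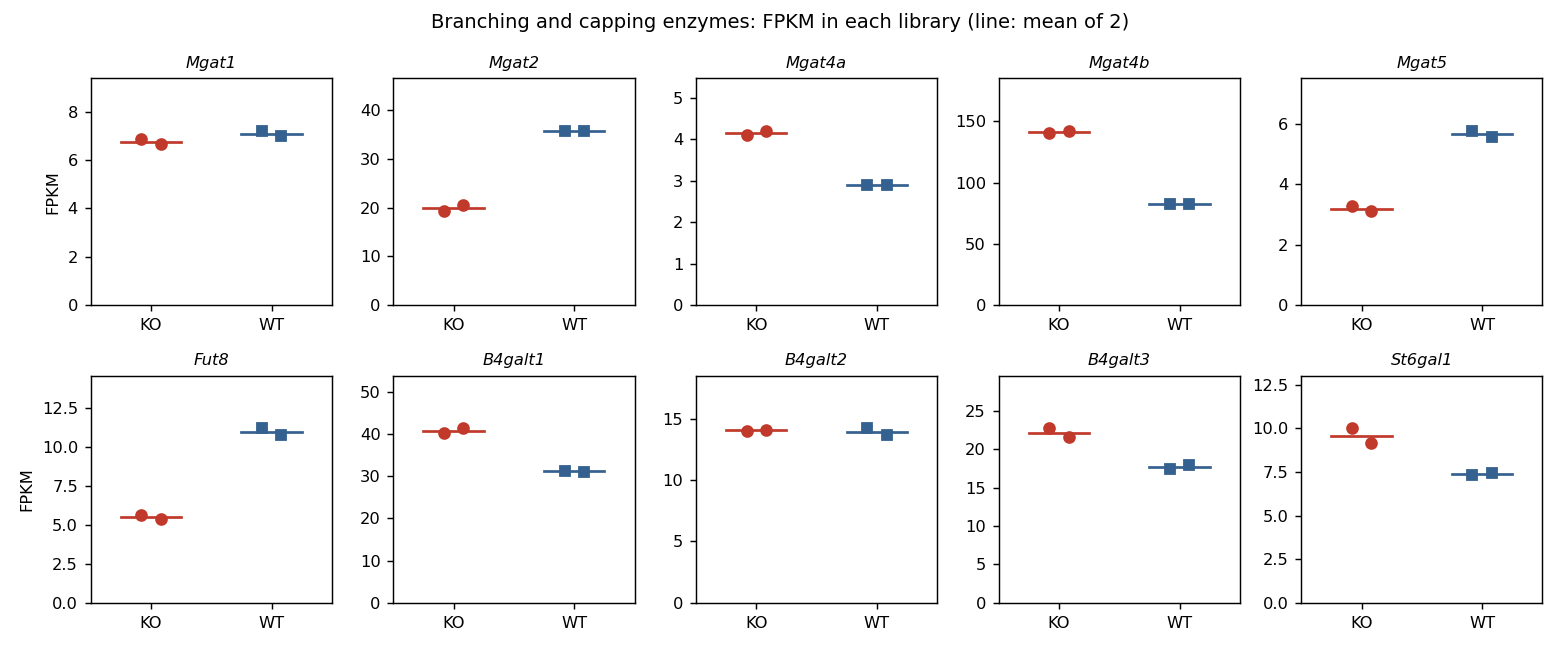
The y axes, which start at 0, give FPKM for the tested branching and capping members, with circles for DHODH KO, squares for WT and a line at the mean of the 2 libraries. Mgat2, Mgat5 and Fut8 lie lower in DHODH KO and Mgat4a, Mgat4b, B4galt1, B4galt3 and St6gal1 higher, while Mgat1 and B4galt2 were not called.

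Of the enzymes that finish the chain, 3 of 5 tested members rose and Fut8 fell. That is 80% called, against 64.7% of all tested genes. Fut8, the only enzyme known to add core fucose, was at 5.66 and 5.39 FPKM in DHODH KO cells and at 11.2 and 10.8 FPKM in WT cells. It was 1.99-fold higher in WT (-0.88 ± 0.062, adjusted p = 2.9e-05). The galactosyltransferase gene B4galt1 was at 40.2 and 41.3 FPKM in DHODH KO and at 31.2 and 31.1 FPKM in WT (0.38 ± 0.041, adjusted p = 1.8e-04). B4galt3 was at 22.7 and 21.6 FPKM in DHODH KO and at 17.4 and 17.9 FPKM in WT (0.31 ± 0.050, adjusted p = 0.00130). The third galactosyltransferase, B4galt2, overlapped, at 14.0 and 14.1 FPKM in DHODH KO and 14.2 and 13.7 FPKM in WT (adjusted p = 0.927). Summed over these 3 genes the level was 76.9 FPKM in both DHODH KO libraries and 62.8 and 62.7 FPKM in WT. St6gal1, which caps galactose with sialic acid, was at 10.0 and 9.17 FPKM in DHODH KO and at 7.35 and 7.46 FPKM in WT (0.33 ± 0.065, adjusted p = 0.00324), and St6gal2 was listed at 0 in all libraries but DHODH KO replicate 1 (0.00362 FPKM).

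The members also differ in where their products sit. By the gene ontology column of the table, 28 members had an entry naming the endoplasmic reticulum and none naming the Golgi, and 9 of these rose and 10 fell. Of 11 with an entry naming the Golgi alone, 9 were tested, 2 rose and 3 fell, and of 7 with both kinds of entry, 6 were tested, 3 rose and 2 fell. Split at the transfer to protein, 8 of 26 members before and including the oligosaccharyltransferase rose and 9 fell, and 6 of 17 tested members after it rose and 6 fell. The directions were thus divided on both sides of the transfer, as they were among all tested genes, 35.6% higher and 29.1% lower. The share called was 65.4% up to the transfer and 70.6% after it, against 64.7% of all tested genes.

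Genes that act on the same steps but lie outside the annotation entry were as mixed, with 3 of 9 higher and 4 lower, or 3 and 3 without DHODH KO replicate 2. Dhdds, a subunit of the enzyme that builds the dolichol chain, rose, at 15.7 and 15.3 FPKM in DHODH KO and 11.0 and 10.2 FPKM in WT (0.51 ± 0.058, adjusted p = 2.4e-04). Its partner Nus1 was at 28.5 and 31.6 FPKM in DHODH KO and 30.5 and 30.7 FPKM in WT and was not called (adjusted p = 0.692). The oligosaccharyltransferase subunits Ostc and Tmem258 fell by 0.40 (adjusted p = 1.6e-04) and 0.26 (adjusted p = 9.2e-04). Krtcap2 rose by 0.20 (adjusted p = 0.0137) and Ost4 was not called (adjusted p = 0.0976). Krtcap2 was not called with no filter (adjusted p = 0.0766) or with voom on recovered reads (adjusted p = 0.0653). The Krtcap2 call was lost when WT replicate 2 was left out (0.13, adjusted p = 0.101).

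Of 8 tested genes listed for UDP-GlcNAc supply, which include the UDP-glucose gene Ugp2, 3 rose and the others were not called. The share called was 37.5%, against 64.7% of all tested genes. Uap1l1, a relative of the enzyme that makes UDP-GlcNAc, rose 2.13-fold, at 63.3 and 66.2 FPKM in DHODH KO and 31.2 and 29.5 FPKM in WT (1.07 ± 0.046, adjusted p = 4.0e-06). The main enzyme gene, Uap1, overlapped, at 24.5 and 25.2 FPKM in DHODH KO and 24.2 and 25.3 FPKM in WT (adjusted p = 0.912). Gfpt1, Gnpnat1 and Pgm3 of this list were not called either (-0.06, -0.19 and 0.002). Ugp2, which makes UDP-glucose, rose by 0.60 (adjusted p = 1.3e-04), and the call of the salvage kinase gene Nagk (0.24, adjusted p = 0.0463) was lost without DHODH KO replicate 1 (0.20, adjusted p = 0.158), DHODH KO replicate 2 (0.28, adjusted p = 0.0549) or WT replicate 1 (0.15, adjusted p = 0.257). Of 12 tested genes that supply mannose, fucose and sialic acid donors, 2 rose and 5 fell, or 2 and 6 without DHODH KO replicate 2. Pmm2, the phosphomannomutase behind GDP-mannose, was at 9.63 and 9.41 FPKM in DHODH KO and at 20.8 and 21.5 FPKM in WT, and was 2.23-fold higher in WT (-1.08 ± 0.051, adjusted p = 5.5e-06). Gne, which begins sialic acid synthesis, fell by 0.44 (adjusted p = 9.8e-04), and Gmppa, a regulator of GDP-mannose synthesis, rose by 0.33 (adjusted p = 0.00184).

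Of 11 transporter and ion-supply genes 4 rose and 2 fell, and only 1 fell without DHODH KO replicate 2. Slc35a4 was at 14.3 and 14.2 FPKM in DHODH KO and 26.9 and 26.1 FPKM in WT (-0.85, adjusted p = 9.2e-06), and the UDP-GlcNAc transporter gene Slc35a3 and the manganese-handling gene Tmem165 rose by 0.42 (adjusted p = 1.8e-04) and 0.47 (adjusted p = 4.7e-05). Of 17 tested genes of glycoprotein folding and quality control 3 rose and 7 fell, or 2 and 8 without DHODH KO replicate 2. Edem3, a mannosidase-like factor of ER-associated degradation, was at 18.3 and 17.7 FPKM in DHODH KO and 9.52 and 8.81 FPKM in WT (0.90, adjusted p = 2.0e-05). Ngly1, which strips N-glycans from misfolded proteins in the cytosol, was at 1.60 and 1.53 FPKM in DHODH KO and 3.32 and 3.35 FPKM in WT (-0.76, adjusted p = 2.2e-04), and the lectin chaperone gene Calr fell by 0.45 (adjusted p = 3.9e-05). Of 10 tested sialyltransferase and polylactosamine genes 5 rose and St3gal1 fell, while 6 rose and that fall was no longer called without DHODH KO replicate 2. St3gal6 was at 2.63 and 2.55 FPKM in DHODH KO and 0.960 and 1.19 FPKM in WT (0.79, adjusted p = 4.1e-04), and its change was 1.20 with a pseudocount of 0.1 and 1.25 with voom on recovered reads. St3gal5, the GM3 synthase gene, and B3gnt2, which extends polylactosamine, rose by 0.59 (adjusted p = 2.8e-04) and 0.38 (adjusted p = 3.9e-04). The tethering complex COG had 3 of 8 members higher and 2 lower, or 3 and 1 without DHODH KO replicate 2, with Cog6 and Cog4 up by 0.50 (adjusted p = 2.3e-04) and 0.29 (adjusted p = 0.00548) while Cog3 fell by 0.48 (adjusted p = 0.00110).

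**Figure D5:**
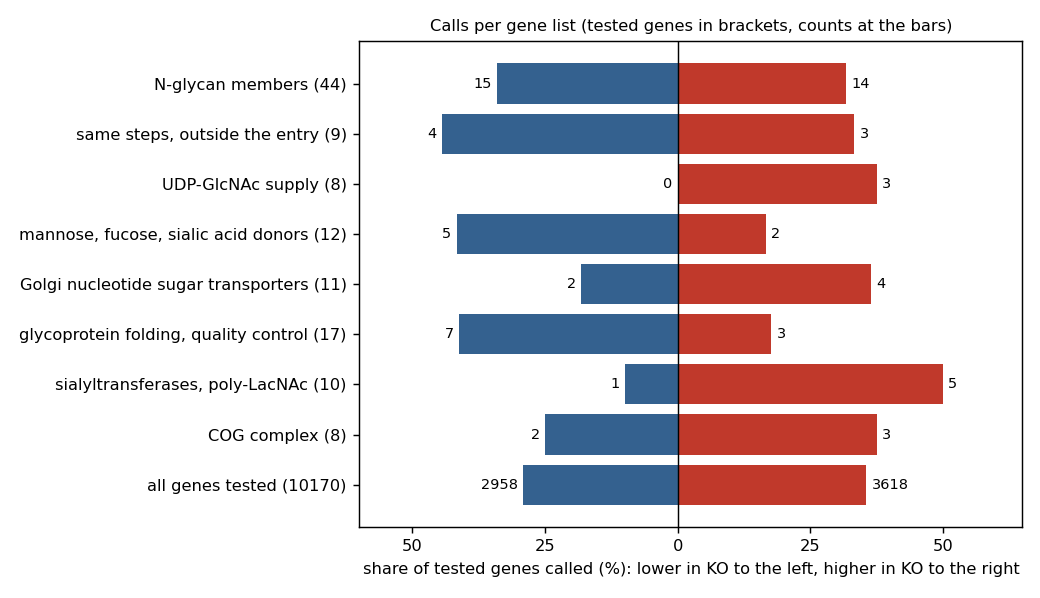
Bars give the share of tested genes called in each list, lower in DHODH KO to the left and higher to the right, with the counts at the bars and the number tested in brackets. The N-glycan members, with 14 higher and 15 lower, stand near the shares of all tested genes, 35.6% higher and 29.1% lower.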

How the data were processed

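The authors deposited FPKM for 16695 genes in 4 libraries, 2 of DHODH KO and 2 of WT cells. Tools named by the submitters' processing notes are fastp and HTSeq, with the build GRCm39. The aligner, annotation, gene length and strand setting have no mention in the labels or notes, so antisense and overlapping genes cannot be told apart and levels of different genes rest on an unstated length.

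Genes with a mean of at least 1 FPKM were fitted on log2(FPKM + 1) with limma-trend 3.58.1 in R 4.3.3, KO minus WT, two-sided, without covariates. The threshold was 0.05 after Benjamini-Hochberg adjustment. Whole reads were recovered for 98.4% of genes, 47 of 48 members, within 0.002 of a read, as the smallest whole numbers that fit and up to 20000 reads. Stt3a was the member not recovered. The fit was also run on simulated data with known changes, in far fewer genes than were called here. That run checks the code and not these calls. Tables and figures used Python 3.11.15, pandas 2.3.3 and Matplotlib 3.10.9, and promoter windows are RefSeq's on GRCm38.p6.

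Alternatives were the pseudocount, the filter, scaling to TPM, median-ratio and quantile scaling, no trend, robust variances, the replicate block, a minimum fold change, voom on recovered reads and leaving out each library. Counts per list without DHODH KO replicate 2 were added after the data were seen. Members, lists and tests were chosen with earlier results of these data known. Values are named for every member. For each other list they are given for up to 3 called genes of smallest adjusted p, and further genes were named after their values were seen. 1 gene of these lists is counted but not reported here by name.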

Additional observations from a re-analysis of the deposited data

How the results depend on the processing

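No called member changed direction under any of 15 alternatives. Apart from the test against a log2 fold change of 0.5, which left 2 members higher (Dpm1 and Mgat4b) and 2 lower (Fut8 and Mgat2), 22 of the 29 called members, 9 higher and 13 lower, kept their call in each of the other 14 in which they were tested. Leaving out 1 library gave 12 to 14 members higher and 13 to 16 lower, with medians of -0.055 to -0.022, where a genotype's lone library is assumed to vary like the others. The members' median of -0.039 became 0.003 with no filter and -0.006 with a minimum of 5 FPKM, which change the genes tested. It became -0.087 with median-ratio scaling, -0.085 with quantile normalization and -0.093 with voom on recovered reads, where the median of all genes was -0.008, -0.013 and 0.023, and the cause was not tested. With no filter 11 members were higher and 14 lower, with Man1b1, Ddost, Dpm3, Man1a2 and Srd5a3 lost and Man1c1 gained. Same-numbered libraries deviated together only weakly (correlation 0.0463 over 10170 genes), and the labels do not say that numbers pair libraries. With the replicate block 15 members were higher and 15 lower. Members with few reads, such as Dolpp1 and Glt28d2, are limited by depth.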

Other observations

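Other glycan pathways of the authors' annotation were picked after the data were seen, and no difference from the members was tested. Of 15 tested genes of the entry Glycosaminoglycan degradation, 11 rose and 1 fell, also without DHODH KO replicate 2, against 35.6% and 29.1% of all tested genes. The hyaluronidase gene Hyal1 was at 12.5 and 10.9 FPKM in DHODH KO and at 2.26 and 2.03 FPKM in WT (log2 fold change 2.01, adjusted p = 4.0e-06), and Idua, the iduronidase gene, at 4.17 and 3.35 FPKM in DHODH KO and 1.37 and 1.55 FPKM in WT (0.95, adjusted p = 2.6e-04). The glucuronidase gene Gusb was the gene that fell, at 14.7 and 15.3 FPKM in DHODH KO and 18.5 and 19.4 FPKM in WT. Of 14 tested genes of Other glycan degradation, 9 rose and 1 fell. The fucosidase gene Fuca2 was at 29.1 and 29.9 FPKM in DHODH KO and 14.0 and 13.5 FPKM in WT (1.05, adjusted p = 4.9e-06). Its relative Fuca1 rose by less (0.295, adjusted p = 0.00378).

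Heparan sulfate synthesis held 8 of 13 tested genes higher and 2 lower, or 7 and 2 without DHODH KO replicate 2. Hs3st1, a sulfotransferase gene, was at 4.56 and 5.43 FPKM in DHODH KO and 1.02 and 1.39 FPKM in WT (1.44, adjusted p = 5.3e-05), while the sulfotransferase gene Ndst1 was at 6.61 and 6.37 FPKM in DHODH KO and 11.0 and 10.9 FPKM in WT (-0.67, adjusted p = 7.1e-05). Mucin type O-glycan genes were divided, with 3 of 13 higher and 5 lower, or 4 and 4 without DHODH KO replicate 2. Galnt10, which starts O-glycans, was at 8.28 and 7.39 FPKM in DHODH KO and 14.1 and 13.7 FPKM in WT (-0.75, adjusted p = 7.5e-05), and its relative Galnt3 at 26.8 and 27.5 FPKM in DHODH KO and 20.2 and 20.1 FPKM in WT (0.41, adjusted p = 1.8e-04). Genes of the GPI anchor had 7 of 24 higher and 5 lower, and 5 and 7 without DHODH KO replicate 2. The share called was 76.9% for heparan sulfate, 61.5% for mucin type O-glycan and 50% for GPI anchor genes. Among all tested genes it was 64.7%, with 35.6% higher and 29.1% lower. Adjusted p-values are those of limma-trend over all tested genes, and the entries share genes with one another.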
